A study of Mus musculus with 12 samples.

Results

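The genes described here serve the uptake of proteins and vitamins from outside the cell and their breakdown in the lysosome. The set holds 35 named mouse genes, found by Ensembl identifier among 38924 genes in the deposited counts, and 35 of 35 were present. By role it comprised 6 endocytic receptors and ligand carriers, 12 lysosomal proteases and peptidases, 6 glycosidases, 5 genes of lipid handling, 5 membrane proteins and 1 transcription factor. The cells came from E7.25 mouse embryos by sorting, and RNA was sequenced in 12 libraries, 3 for each of 4 types. All 4 types came from 1 mouse line, Foxa2Cre:Rosa26-YFP, in which Cre recombinase made under Foxa2 control switches on a yellow fluorescent protein (YFP) for good, so that YFP records past Foxa2 expression. Cardiac mesoderm was split into a YFP-positive fraction, labelled ventricular, and a YFP-negative fraction, labelled non-ventricular. The other types were endoderm, labelled EPCAM+, and hematopoietic mesoderm, labelled KDR+. No group lacks the Cre or the reporter, and the labels do not say how many embryos went into a library.

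In receptor-mediated endocytosis, a receptor at the cell surface binds its ligand, gathers in a clathrin-coated pit through adaptor proteins and is taken into endosomes, which hand the cargo on to lysosomes. There, in an acid lumen, cathepsins cut proteins, glycosidases trim sugars, and lipases and lipid transfer proteins deal with lipids. The visceral endoderm, the epithelium that covers the early mouse embryo, is known for this kind of uptake: it absorbs maternal proteins, lipids and vitamins before a placenta works. Cubilin, which has no membrane anchor of its own, is carried to the surface by amnionless and works beside the giant receptor megalin. Definitive endoderm arises from the primitive streak and moves into the same outer layer at about this stage. Transcription factor EB, encoded by Tfeb, is known to switch on many lysosomal genes through a DNA motif of the E-box kind, CACGTG.

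Endoderm held more RNA of most endocytic receptor genes than mesoderm did, while most lysosomal genes did not pass the test. Cubn, Amn, Dab2 and Folr1 among the receptor genes and Ctsc, Ctsh, Ctsl and Npc1 among the lysosomal genes were higher in endoderm than in the mean of the 3 mesoderm types. These 8 were called at an adjusted p under 0.05 by edgeR's quasi-likelihood test, out of 34 genes tested, and 0 were called lower. Amn and Folr1 passed the expression filter only through their endoderm counts, so they could not have been called lower. Of all 14170 genes tested, 5.5% were called higher in that comparison. The median log2 fold change was 0.91 over the 34 genes against 0.07 over all genes. The hematopoietic libraries were not alike. Markers of cardiac mesoderm summed to 2350 CPM in hematopoietic replicate 3 against 907 and 1040 CPM in replicates 1 and 2. The cardiac libraries had 2018 to 2560 CPM. The sum of replicate 3 includes 962 CPM of Kdr, which is also a hematopoietic marker. Hand1, Mixl1, Eomes and Snai1 stood at 415, 361, 263 and 46.7 CPM in that replicate. Mesp1 at 0 and Pdgfra at 48.1 CPM went the other way, against 11.4 to 53.9 and 203 to 386 CPM in the cardiac libraries. Gata1, a factor of red blood cell precursors, stood at 0.209 CPM in hematopoietic replicate 3 against 74.0 and 46.4 CPM in replicates 1 and 2. The summed hematopoietic and endothelial markers of that library, 2499 CPM, were still above those of every cardiac library. Without it, 9 genes were called against the mean of mesoderm, the same 8 and Tcn2. Against hematopoietic mesoderm 7 were called in place of 6, where Ctsl was lost and Amn and Tcn2 were gained. The share of all genes called also rose without that library in the pair with YFP-positive cells, as given below. These gains are therefore not read as particular to the set. In bulk RNA of a sorted type, fewer cells with a gene and less of its RNA per cell cannot be told apart.

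To show the starts of genes on either side of this contrast, 250 bases before the RefSeq transcription start are printed for Cubn and Amn, the 2 partners of the cubilin receptor, and for Lamp1, whose level was nearly the same in every library. The windows are chr2:13491877-13492126 on the minus strand, chr12:111270846-111271095 on the plus strand and chr8:13158911-13159160 on the plus strand, on build GRCm38.p6, each read 5′ to 3′. Capitals mark the motif CACGTG, the same letters on both strands.
Cubn: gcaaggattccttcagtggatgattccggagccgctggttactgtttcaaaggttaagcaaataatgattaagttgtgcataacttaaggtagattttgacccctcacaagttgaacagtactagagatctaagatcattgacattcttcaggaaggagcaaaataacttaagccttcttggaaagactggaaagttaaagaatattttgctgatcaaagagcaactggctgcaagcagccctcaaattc
Amn: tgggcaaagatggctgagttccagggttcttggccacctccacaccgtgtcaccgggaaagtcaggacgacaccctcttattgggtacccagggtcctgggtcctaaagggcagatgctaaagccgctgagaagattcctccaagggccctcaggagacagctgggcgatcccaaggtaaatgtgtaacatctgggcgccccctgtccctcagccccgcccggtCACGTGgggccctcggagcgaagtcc
Lamp1: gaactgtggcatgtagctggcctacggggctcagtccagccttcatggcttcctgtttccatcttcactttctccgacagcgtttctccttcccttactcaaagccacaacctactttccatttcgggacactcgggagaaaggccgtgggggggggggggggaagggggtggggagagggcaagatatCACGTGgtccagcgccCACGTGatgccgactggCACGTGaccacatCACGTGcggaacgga
The Amn window held the motif once, with its first base 26 bases before the start, and the Lamp1 window held it 4 times, at 61, 45, 28 and 15 bases before the start. The printed Cubn window did not hold these letters. RefSeq promoter windows, reaching from 250 bases before to 50 after a start, were matched for 29 of the 35 genes and numbered 35. CACGTG stood in 10 of these 35 windows (28.6%) against 7.15% of 32851 windows of the same length. The 10 genes were Amn, Ctsa, Ctsd, Ctsf, Ctsl, Gla, Glb1, Lamp1, Lgmn and Mcoln1. The longer form TCACGTGA, which contains the first motif, stood in 4 of the 35 windows (11.4%), those of Ctsa, Ctsd, Gla and Mcoln1, against 0.974% of all. That form extended by G in front and C behind stood in 0 of the 35 and in 0.326% of all. Of the 8 genes called higher in endoderm, 5 had a window, and 2 of these, Amn and Ctsl, held CACGTG. A match is a description of the letters and not a measured binding site.

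Among the receptors, Cubn showed the widest range. Cubn (ENSMUSG00000026726.9, chr2:13276338-13491813 on the minus strand of GRCm38) encodes cubilin, which binds vitamin B12 with its carrier intrinsic factor, albumin and high-density lipoprotein. Levels are given as CPM, counts scaled to the same total of gene counts in each library, after trimmed-mean scaling. Cubn stood at 1490, 307 and 740 CPM in endoderm replicates 1, 2 and 3, and at 6.43, 3.27 and 7.93 CPM in the YFP-positive libraries. It stood at 1.17, 0.978 and 0.866 CPM in the YFP-negative libraries and at 4.08, 7.94 and 1.05 CPM in the hematopoietic libraries. Every endoderm library was above every mesoderm library, and endoderm replicate 2 was the lowest of its type. Cubn was higher in endoderm by 7.17 ± 0.72 (log2 fold change ± SE) against YFP-positive cardiac mesoderm, 9.70 ± 0.82 against YFP-negative and 7.57 ± 0.74 against hematopoietic mesoderm. The adjusted p-values of edgeR were 0.000237, 6.13e-05 and 0.000132. These calls were lost in 1 of 19 alternatives each, limma voom with library quality weights, where adjusted p was 0.630, 0.479 and 0.650, and the call against the mean of mesoderm was lost there too (0.231).

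Amn (ENSMUSG00000021278.6, chr12:111271095-111276426 on the plus strand) encodes amnionless, the membrane anchor of cubilin. It stood at 34.2, 9.92 and 35.3 CPM in the 3 endoderm libraries and was 0 in 7 of the 9 mesoderm libraries. The exceptions were YFP-positive replicate 3, with 1 count or 0.184 CPM, and hematopoietic replicate 3, with 16 counts or 3.35 CPM. All 3 endoderm libraries were above all mesoderm libraries, as they were for Cubn. Against YFP-negative cardiac mesoderm, whose 3 libraries held 0 counts, the endoderm mean was at least 58.6-fold higher, with 3 counts per library as the floor. Against YFP-positive cardiac mesoderm the ratio of pooled counts was 413, with an exact 95% counting interval of 73.8 to 16337. The contrast with the mean of mesoderm was called by edgeR (adjusted p = 0.00735), and no single pair was, with adjusted p from 0.089 to 0.182.

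Lrp2 (ENSMUSG00000027070.8, chr2:69424340-69586065 on the minus strand) encodes megalin, which takes up vitamin-carrier complexes together with cubilin. Its levels were 230, 72.7 and 208 CPM in endoderm, 3.94, 26.0 and 1.11 in YFP-positive, 18.7, 11.6 and 32.6 in YFP-negative and 52.3, 0 and 15.5 CPM in hematopoietic libraries. The groups did not overlap, yet the mesoderm libraries were scattered, and hematopoietic replicate 2 had no Lrp2 count at all. Endoderm was higher than the mean of mesoderm by 3.33 ± 0.95 on the log2 scale, which missed the threshold in edgeR (adjusted p = 0.0510). It passed in 5 of 18 alternatives, 3 of which left out YFP-positive replicate 2, hematopoietic replicate 1 or hematopoietic replicate 2.

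Dab2 (ENSMUSG00000022150.10, chr15:6299788-6440712 on the plus strand) encodes the clathrin adaptor that binds the tails of megalin and related receptors. It was the gene of the set with the highest mean CPM. Levels were 1090, 510 and 713 CPM in endoderm against 207, 207 and 147 in YFP-positive, 150, 152 and 113 in YFP-negative and 178, 40.1 and 125 CPM in hematopoietic libraries. Unlike Cubn, Amn and Lrp2, Dab2 was well represented in all 12 libraries, and every endoderm library was still above every mesoderm library. The log2 fold change of endoderm was 2.05 ± 0.43 against YFP-positive (edgeR adjusted p = 0.0310), 2.48 ± 0.43 against YFP-negative (0.0117) and 2.76 ± 0.44 against hematopoietic mesoderm (0.00425). The call against YFP-positive cells ended when any library of that type, or endoderm replicate 1 or 3, was left out, and in limma voom with quality weights (adjusted p = 0.161). The call against YFP-negative cells ended without any 1 of their 3 libraries or without endoderm replicate 1, and that against hematopoietic mesoderm in limma voom (0.160). The call against the mean of mesoderm (2.43 ± 0.31, adjusted p = 0.000541) held in 18 of 18 alternatives.

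Folr1 (ENSMUSG00000001827.5, chr7:101858331-101870788 on the minus strand) encodes folate receptor alpha, a lipid-anchored protein that brings folate into cells. It stood at 31.5, 2.45 and 15.7 CPM in endoderm, and its counts were 0 in 8 of the 9 mesoderm libraries. YFP-positive replicate 3 held the remaining 2 counts. The endoderm libraries spanned 12.9-fold among themselves, and the lowest of them was still above all mesoderm. Folr1 was at least 36.7-fold higher in endoderm than in YFP-negative cardiac mesoderm and at least 26.6-fold higher than in hematopoietic mesoderm. The ratio of pooled counts to YFP-positive cardiac mesoderm was 123, with a counting interval of 33.7 to 1016. The contrast with the mean of mesoderm was called by edgeR (adjusted p = 0.00622).

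Tcn2 (ENSMUSG00000020432.6, chr11:3917192-3932159 on the minus strand) encodes transcobalamin, the carrier that brings vitamin B12 to tissues. Its levels were 51.8, 21.4 and 44.8 CPM in endoderm, 16.2, 0.909 and 8.67 in YFP-positive, 7.18, 5.17 and 3.32 in YFP-negative and 0.240, 1.04 and 54.0 CPM in hematopoietic libraries. Hematopoietic replicate 3 was higher than every endoderm library, so the groups overlapped. The difference from the mean of mesoderm, 2.07 ± 1.07, was not called (adjusted p = 0.338), but it was without hematopoietic replicate 3 and in limma voom. Over the 6 receptor and carrier genes the median log2 fold change of endoderm was 5.53, with 6 of 6 higher and 4 called. Amn and Folr1, which passed the expression filter only through endoderm, are among the 4 and in this median.

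**Figure D1:**
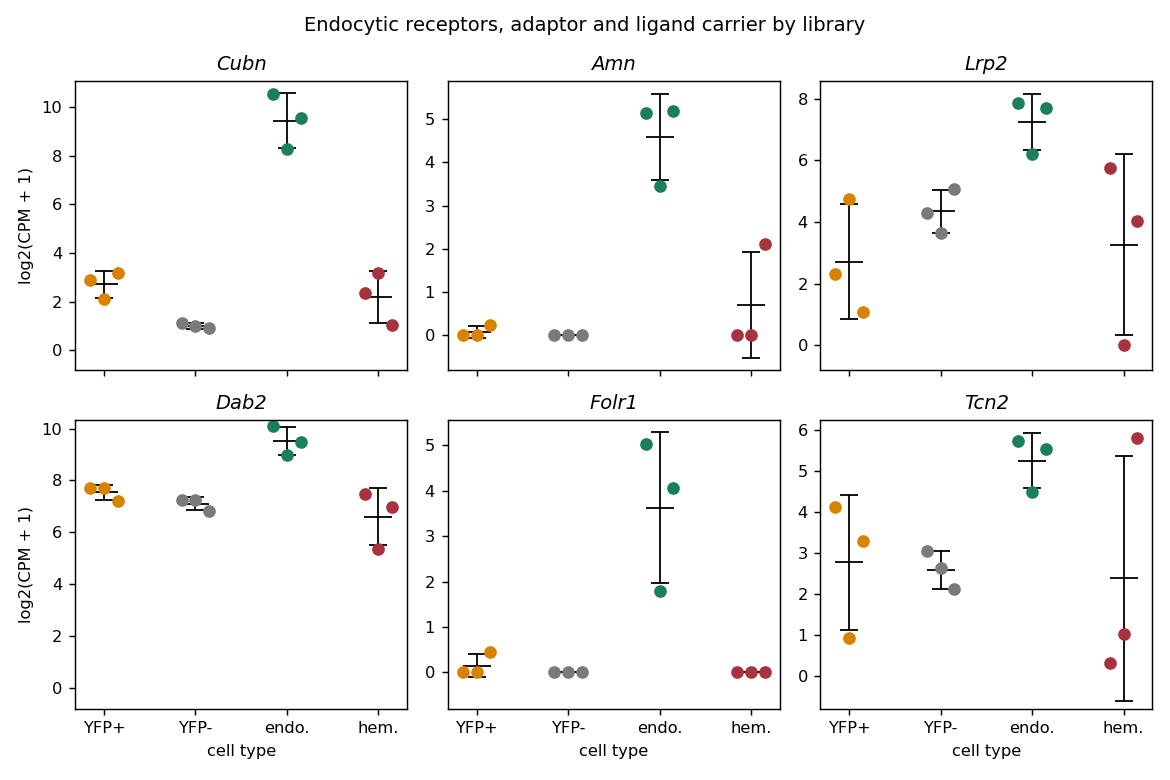
Levels of the 6 endocytic receptor, adaptor and ligand carrier genes in each library, as log2(CPM + 1), by cell type (YFP+ and YFP-, cardiac mesoderm fractions; endo., endoderm; hem., hematopoietic mesoderm). Points are the 3 libraries of a type in the order of their replicate numbers, and bars are the mean ± SD; endoderm lies above all 9 mesoderm libraries for every gene except Tcn2.

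Compared per kilobase of exon, the receptors were not present in equal amounts. In endoderm the mean level per kilobase was 56.6 for Cubn, 14.4 for Amn and 10.2 CPM per kilobase for Lrp2, so the RNA of cubilin exceeded that of its anchor and of megalin. Dab2, at 105 CPM per kilobase, was higher than each of these. In the mesoderm types Dab2 stood at 15.6 to 25.5 CPM per kilobase, and Cubn at 0.0673 to 0.394. These lengths are the merged exons of the GENCODE M21 annotation.

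Of the lysosomal proteases, 3 of the 11 tested were called higher in endoderm than in the mean of mesoderm, and the median log2 fold change of the 11 was 0.92. Ctsc encodes cathepsin C, a dipeptidyl peptidase that also activates other proteases. Its levels were 327, 218 and 203 CPM in endoderm, 78.0, 75.8 and 73.8 in YFP-positive, 78.7, 82.4 and 54.7 in YFP-negative and 23.1, 52.8 and 47.1 CPM in hematopoietic libraries. Endoderm lay above all the others, and the 2 cardiac fractions were close to each other. Against these fractions endoderm was higher by 1.72 ± 0.35 (YFP-positive, edgeR adjusted p = 0.0275) and 1.79 ± 0.35 (YFP-negative, 0.0231), and against hematopoietic mesoderm by 2.60 ± 0.36 (0.00169). The first 2 calls were lost whenever 1 library of either compared type was left out, and with the replicate number as a block (adjusted p = 0.0557 and 0.0519). The call against hematopoietic mesoderm held in 19 of 19 alternatives.

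Ctsh encodes cathepsin H, an aminopeptidase. Of the lysosomal genes called it had the largest difference, with 189, 65.6 and 129 CPM in endoderm against 0.623, 5.45 and 1.84 in YFP-positive, 0.334, 0 and 2.31 in YFP-negative and 1.92, 3.80 and 0.419 CPM in hematopoietic libraries. No mesoderm library came near the lowest endoderm library. The log2 fold change was 7.14 ± 1.42 against YFP-negative (edgeR adjusted p = 0.0240) and 5.94 ± 1.33 against hematopoietic mesoderm (0.0261), while 5.58 ± 1.31 against YFP-positive cells was not called (0.0534). The call against the mean of mesoderm, 6.22 ± 0.85 (adjusted p = 0.000975), held in 18 of 18 alternatives. The pair calls each ended without any 1 of the endoderm libraries, the first also without YFP-negative replicate 1 or 2 or with the replicate block (0.0621), and the second also without hematopoietic replicate 1 or in limma voom with quality weights (0.121).

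Ctsl encodes cathepsin L, one of the chief endopeptidases of the lysosome. It was abundant everywhere, with 383, 240 and 271 CPM in endoderm, 165, 233 and 133 in YFP-positive, 196, 160 and 143 in YFP-negative and 191, 123 and 83.9 CPM in hematopoietic libraries. The lowest endoderm library exceeded the highest mesoderm library, YFP-positive replicate 2, by little. Endoderm was higher than the mean of mesoderm by 0.92 ± 0.24 (edgeR adjusted p = 0.0340) and than hematopoietic mesoderm by 1.17 ± 0.31 (0.0467). The first call ended without YFP-negative replicate 2 or 3 or any endoderm library, and the second held in 8 of 19 alternatives and was lost in 9 of the 12 that left out a library. In the annotation, 26.8% of the exonic bases of Ctsl are shared with other gene models, so some reads may have been left unassigned.

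The other proteases were not called by edgeR in the contrast with mesoderm. DESeq2 called Lgmn higher and Ctso lower in endoderm there, among 10 genes of the set with 8.66% of all genes called. Limma voom with quality weights called Lgmn, Ctsb and Ctsf higher, among 15 with 21.8% of all genes called. Ctsb, a cathepsin with both endopeptidase and exopeptidase activity, stood at 89.7 to 177 CPM in endoderm and 3.56 to 83.9 CPM in mesoderm, and Ctsf at 11.0 to 20.8 against 0 to 9.24 CPM; in both the groups did not overlap. Their log2 differences were 1.31 ± 0.57 (edgeR adjusted p = 0.232) and 3.44 ± 1.14 (0.0963). Lgmn, which encodes legumain, an asparagine-specific protease that processes cathepsins, ranged from 40.1 to 88.2 CPM in endoderm and from 0.240 to 50.4 CPM in mesoderm. Its difference was 2.25 ± 0.74 (adjusted p = 0.091). Ctsd, the aspartic protease cathepsin D, was nearly level, with means of 121 ± 18.6 (SD, n = 3) in endoderm, 120 ± 37.9 in YFP-positive, 107 ± 31.7 in YFP-negative and 116 ± 49.6 CPM in hematopoietic libraries. Its exons share 34.4% of their bases with another gene model on the same strand. Tpp1, a tripeptidyl peptidase, Ctsa, the carboxypeptidase known as protective protein, and Ctsz also overlapped between endoderm and mesoderm, with differences of 0.24, 0.62 and 0.10.

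Ctso and Ctss were the proteases least read in endoderm. Ctso encodes cathepsin O and had 2, 1 and 0 counts in the endoderm libraries. It stood at 54.0, 21.1 and 3.87 in YFP-positive, 0, 18.3 and 2.60 in YFP-negative and 6.24, 0 and 0 CPM in hematopoietic libraries. Only the YFP-positive libraries were all above endoderm, and they spread over more than an order of magnitude. The ratio of pooled counts of YFP-positive cells to endoderm was 189, with a counting interval of 64.3 to 922, and the difference was not called by edgeR (adjusted p = 0.172). Ctss, which encodes cathepsin S, a protease of antigen-presenting cells, had 18 counts in hematopoietic replicate 1, 1 count each in YFP-positive replicate 2 and endoderm replicate 3, and 0 in the other 9. It was the 1 gene that did not pass the expression filter and was not tested.

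Among the genes of lipid handling, Npc1, which encodes the membrane protein that exports cholesterol from the lysosome, was called. It stood at 267, 221 and 275 CPM in endoderm, 98.0, 178 and 132 in YFP-positive, 162, 140 and 121 in YFP-negative and 132, 78.7 and 120 CPM in hematopoietic libraries. All 3 endoderm libraries were above the other 9, and they were close to each other. The difference from the mean of mesoderm was 0.99 ± 0.21 (edgeR adjusted p = 0.0114) and that from hematopoietic mesoderm 1.21 ± 0.28 (0.0271). The first call ended without endoderm replicate 1 or 3, the second without any endoderm library or hematopoietic replicate 2. Npc2, the soluble partner that passes cholesterol to Npc1, did not follow it, with 96.9 to 110 CPM in endoderm and 9.21 to 190 CPM in mesoderm and a difference of 0.09 ± 0.67. Asah1, acid ceramidase, and Lipa, lysosomal acid lipase, had differences of 1.62 ± 0.64 and 1.07 ± 0.84, with edgeR adjusted p of 0.174 and 0.612, and both were called by limma voom. Psap, the precursor of the saposins that help hydrolases reach their lipids, stood at 37.7 to 43.1 CPM in endoderm and 16.8 to 58.6 CPM in mesoderm.

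None of the 6 glycosidases passed the test in any comparison with endoderm, and their median difference from mesoderm was 0.23. They were Gla, alpha-galactosidase A; Glb1, beta-galactosidase; Gusb, beta-glucuronidase; Hexa, the alpha subunit of hexosaminidase; Man2b1, lysosomal alpha-mannosidase; and Neu1, the lysosomal sialidase. In endoderm their mean CPM ran from 11.2 for Glb1 to 74.7 for Man2b1. Man2b1 stood at 64.8 to 85.3 CPM in endoderm and 3.77 to 87.0 CPM in mesoderm, and Gusb at 50.3 to 72.3 against 25.9 to 121 CPM. The mesoderm range covered the endoderm range for all 6 genes.

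The lysosomal membrane genes did not pass either. Lamp1, which encodes the most abundant glycoprotein of the lysosomal membrane, stood at 286, 230 and 221 CPM in endoderm, 189, 212 and 191 in YFP-positive, 233, 192 and 254 in YFP-negative and 268, 243 and 291 CPM in hematopoietic libraries. Its highest and lowest values among the 12 libraries differed by 1.54-fold. The difference of endoderm from the mean of mesoderm was 0.11 ± 0.14 (edgeR adjusted p = 0.828). Lamp2, its relative, stood at 135 to 194 CPM in endoderm and 77.7 to 218 CPM in mesoderm, with a difference of 0.28 ± 0.28. Cd63, a tetraspanin of late endosomes, Mcoln1, the lysosomal calcium channel mucolipin-1, and Scarb2, the receptor that carries beta-glucocerebrosidase to lysosomes, were lower in CPM and overlapped between the groups. Per kilobase of exon, Lamp1 was the highest of the 35 genes in each mesoderm type, at 73.7 to 99.9 CPM per kilobase, and stood at 91.8 in endoderm, below Dab2.

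Tfeb, the transcription factor, was read at a low level. It stood at 7.76, 1.93 and 5.09 CPM in endoderm, 0.208, 0 and 0 in YFP-positive, 0, 1.68 and 5.34 in YFP-negative and 8.16, 0 and 0 CPM in hematopoietic libraries. All 3 endoderm libraries had it, while 5 of the 9 mesoderm libraries had no count, and the groups overlapped. The difference from the mean of mesoderm was 2.59 ± 1.48 and was not called by edgeR (adjusted p = 0.404). Of 17 alternatives 1 called it, limma voom with quality weights (adjusted p = 0.0317). The pair with the widest gap was endoderm and YFP-positive cardiac mesoderm, with 49, 15 and 43 counts against 1, 0 and 0. The ratio of their pooled counts was 74.8, with a counting interval of 13.1 to 2980, and edgeR did not call the difference (adjusted p = 0.271).

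**Figure D2:**
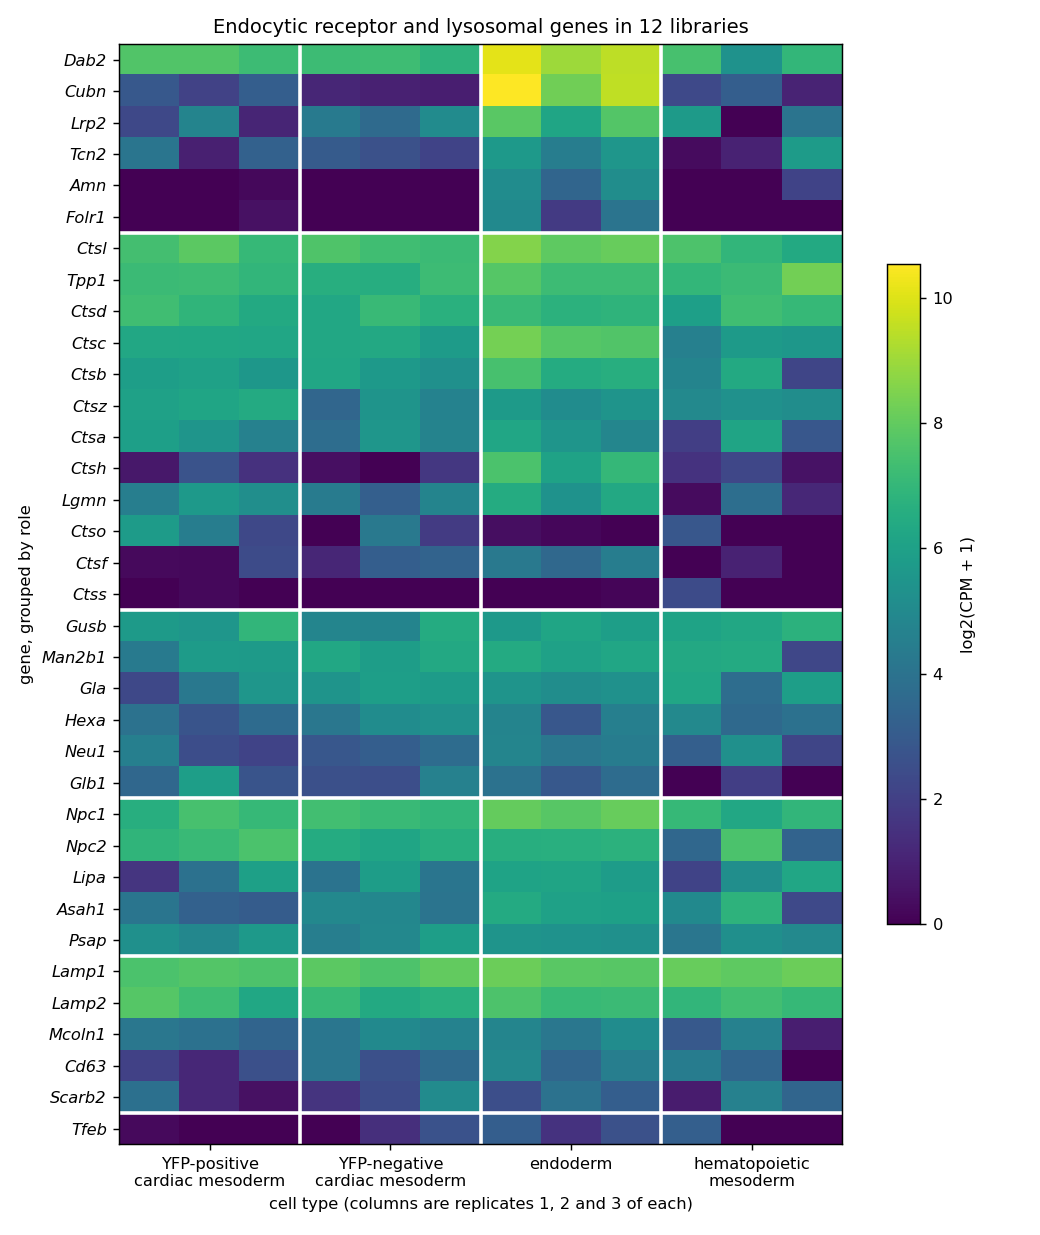
Levels of the 35 genes as log2(CPM + 1), from 0 (dark) to above 10 (yellow), with 1 column per library and 3 columns per cell type. White lines separate the types and, from top to bottom, receptors and ligand carriers, proteases, glycosidases, lipid handling, membrane proteins and Tfeb; the endoderm columns stand out in the receptor block, and the membrane block is nearly uniform for Lamp1.

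Taken pair by pair, fewer genes passed, and all that did were higher in endoderm. Against YFP-positive cardiac mesoderm 3 of the 34 were called (Cubn, Dab2 and Ctsc), where 0.586% of all genes were called higher in endoderm. Against YFP-negative cardiac mesoderm 4 were called (these and Ctsh), against a background of 0.6%. Against hematopoietic mesoderm 6 were called (Cubn, Dab2, Ctsc, Ctsh, Ctsl and Npc1), with 3.23% of all genes called higher in endoderm. Endoderm was the higher side for 29, 29 and 27 of the 34 genes in the 3 pairs, with median log2 fold changes of 0.92, 0.85 and 0.87 against medians of -0.01, -0.01 and 0.07 over all genes. The 3 pairs share the endoderm libraries, and the contrast with the mean of mesoderm uses all of them, so none of these counts stands apart from the others. A single test of any difference among the 4 types called 7 (Cubn, Amn, Dab2, Folr1, Ctsc, Ctsh and Npc1), where 6.03% of all genes were called. All 3 endoderm libraries exceeded all 9 mesoderm libraries for 11 of the 34 genes and for 6.45% of all genes tested. The 11 were the 8 called against mesoderm and Lrp2, Ctsb and Ctsf. Of these, Amn and Folr1 were in the test only through endoderm. The count against the mean of mesoderm rose from 8 to 14 when hematopoietic replicate 2 was left out. There 9.91% of all genes were called in either direction, against 7.43% with all libraries. The count against YFP-positive cells rose to 6 without hematopoietic replicate 3, where Amn, Asah1 and Ctsh were gained and the share of all genes went from 1.54% to 2.65%. DESeq2 called 8 in that pair, of which Ctso was lower in endoderm, with 6.79% of all genes called. With the replicate number as a block, 2 were called against YFP-positive and 2 against YFP-negative cells, with 1.26% and 1.01% of all genes called in either direction.

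**Figure D3:**
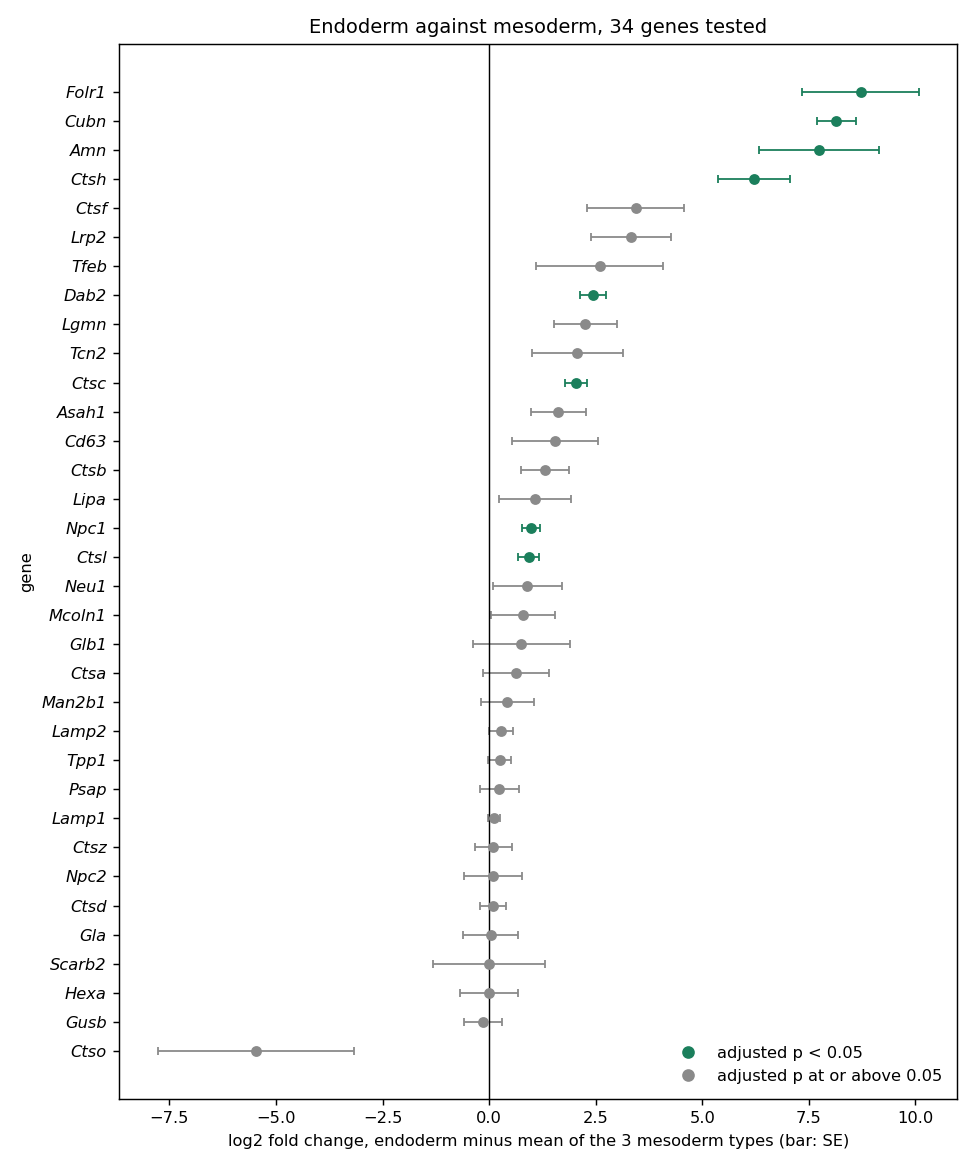
Log2 fold change of endoderm against the mean of the 3 mesoderm types for the 34 genes tested, in order of size, with bars of ± 1 SE from the edgeR fit; green marks the 8 genes with an adjusted p under 0.05. Folr1 and Amn had almost no counts in mesoderm, so their fitted values depend on the prior count of the model; 30 of 34 points lie above 0, and the one far below is Ctso.

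Added up, the 35 genes took 5952, 3032 and 4094 CPM in endoderm replicates 1, 2 and 3 and 1590 to 2006 CPM in the 9 mesoderm libraries. The 6 receptor and carrier genes made up 924 to 2928 CPM of this in endoderm and 49.0 to 237 CPM in mesoderm. The other 29 genes took 2108 to 3024 CPM in endoderm and 1355 to 1830 CPM in mesoderm. Neither sum overlapped between endoderm and mesoderm, and the receptor sum differed far more than the lysosomal sum. Within the receptor sum, Cubn and Dab2 were the 2 largest parts in every endoderm library, while Dab2 was the largest in every mesoderm library.

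The endoderm libraries differed among themselves for these genes. Of the 31 genes with a mean of at least 10 CPM in endoderm, replicate 2 was the lowest for 23 (74.2%), against 33.6% of 9591 genes at that level. The median ratio of replicate 2 to the mean of replicates 1 and 3 was 0.720 for the 31 genes and 0.990 for all. The 6 receptor and carrier genes were all lowest in replicate 2, with a median ratio of 0.309, from 0.104 for Folr1 to 0.566 for Dab2. The 5 lipid genes did not share this, with 1 lowest in replicate 2 and a median ratio of 0.972. The visceral endoderm markers moved the same way: 11 of 12 (Afp, Ttr, Apoa1, Apob, Hnf4a and others) were lowest in replicate 2, with a median ratio of 0.485. Their summed level was 1536 to 3746 CPM in endoderm and 7.95 to 62.7 CPM in mesoderm, and none of the 13 listed was at 0 in endoderm. Of 8 markers of definitive endoderm and the organizer 1 was lowest in replicate 2, with a median ratio of 1.00, and of 6 general endoderm markers 2, with 0.921. The 8 ratios were spread from 0.804 for Trh and 0.845 for Cxcr4 to 1.45 for Chrd, 2.11 for Noto and 3.05 for Nkx1-2. The part of visceral endoderm cells in the difference between the endoderm libraries, or between endoderm and mesoderm, was not tested. Leaving out endoderm replicate 2 gave 7 calls against the mean of mesoderm, counted without the share of all genes called in that fit. It is therefore not read as particular to the set.

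**Figure D4:**
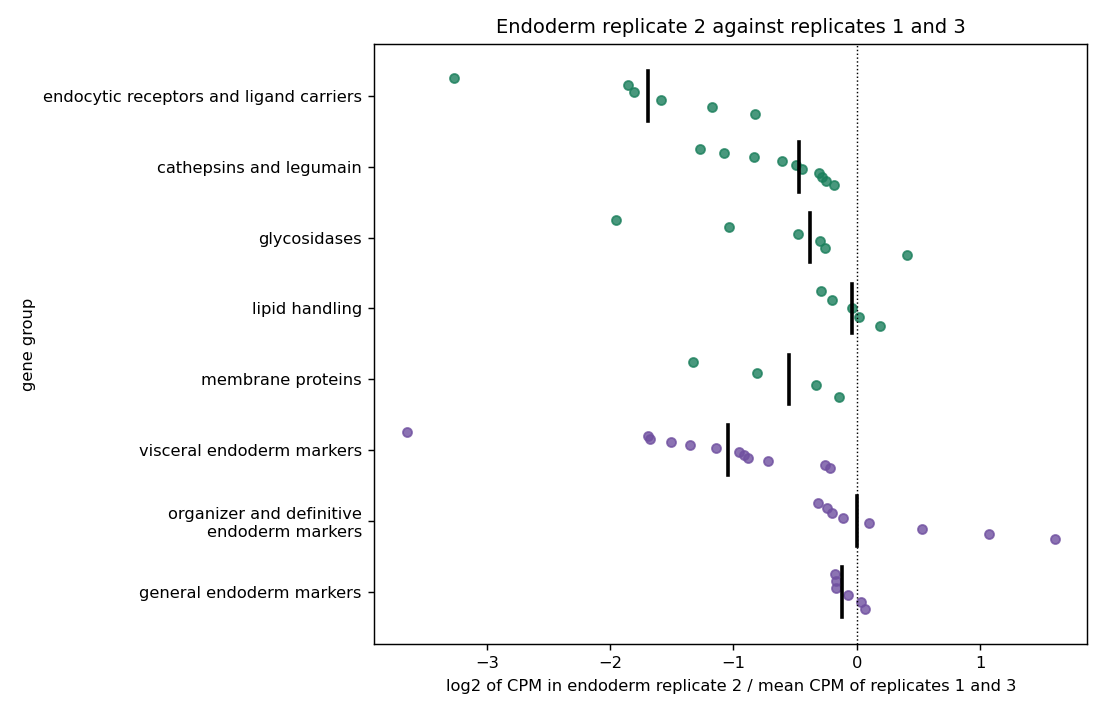
Log2 ratio of CPM in endoderm replicate 2 to the mean of replicates 1 and 3, for genes with a mean of at least 10 CPM in endoderm, by group; green points are the genes described here and purple points the marker lists, and black bars are group medians. Receptors and visceral endoderm markers lie to the left of 0, while lipid genes and the other endoderm markers are centred near 0.

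No gene of the set passed the edgeR test between any 2 of the mesoderm types. Between YFP-positive and YFP-negative cardiac mesoderm, which differ in their history of Foxa2 expression, edgeR called 0 of the 34 genes and 0.0% of all genes. At an unadjusted p under 0.05 it gave 2, Cubn and Ctsz, where 7.49% of all genes passed. DESeq2 called 1, Cubn, with 0.815% of all genes called, and limma voom with quality weights called 0, with 0.0% of all. Cubn was higher in YFP-positive cells by 2.53 ± 0.73, with an adjusted p of 0.626 in edgeR and 0.0185 in DESeq2. Its counts were 31, 18 and 43 in the YFP-positive and 7, 7 and 6 in the YFP-negative libraries, at a level far below that of endoderm. The fractions did not overlap, and the share of all genes for which this held was not counted. Summed visceral endoderm markers were also unequal there, 20.1 to 62.7 CPM with YFP and 8.23 to 12.7 CPM without. Apob was the largest part with YFP, at 8.72, 59.6 and 28.8 CPM against 3.03 to 4.18 CPM without. Rbp4 was among those that went the other way, at most 0.369 CPM with YFP and 0 to 4.01 CPM without. Of 12 of these markers tested, 75.0% were higher with YFP and edgeR called 0. Their part was not tested. Ctsz, which encodes cathepsin Z, a carboxypeptidase, ranged from 65.2 to 87.1 CPM in YFP-positive libraries and from 10.02 to 42.5 CPM in YFP-negative ones, a difference of 1.54 ± 0.55 (edgeR adjusted p = 0.626).

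Against hematopoietic mesoderm, edgeR called 0 of the 34 genes for either cardiac fraction. For YFP-positive cells, 1.79% of all genes were called, 5 of the 34 had an unadjusted p under 0.05 (Lgmn, Ctsc, Lamp1, Asah1 and Glb1) against 19.5% of all genes, DESeq2 called 2 (Lgmn and Glb1) against 11.1%, and limma voom 0 against 0.127%. For YFP-negative cells, 0.593% of all genes were called by edgeR, 5 of the 34 had an unadjusted p under 0.05 (Amn, Cubn, Ctsc, Tpp1 and Ctsf) against 17.4%, DESeq2 called 1 (Cubn, lower in YFP-negative cells) against 7.81%, and limma voom 0 against 0.670%. Lgmn stood at 21.6, 50.4 and 36.5 CPM in YFP-positive and 0.240, 12.9 and 1.26 CPM in hematopoietic libraries, and Glb1 at 10.4, 59.8 and 5.72 against 0, 2.93 and 0 CPM. Neither gene overlapped between these types, and the share of all genes for which this held was not counted. The hematopoietic libraries were the most uneven. Npc2 stood at 10.6, 189 and 9.21 CPM in them, Asah1 at 30.7, 110 and 3.98 CPM and Ctsb at 26.4, 83.9 and 3.56 CPM. In each of these replicate 2 was the highest, whereas for Lrp2 it was the one library with no count. The median coefficient of variation of the genes with at least 10 CPM was 65.8% in hematopoietic mesoderm against 54.2% for all genes, and 27.1% in endoderm against 17.0%. It was 39.8% in YFP-positive and 31.6% in YFP-negative cells, against 43.7% and 27.4% for all genes.

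Other genes of the pathway were counted from fixed lists, in the contrast of endoderm with the mean of mesoderm, where 5.5% of all genes were called higher in endoderm and 1.93% lower. Of 34 receptor partners and genes of the endocytic machinery tested, 1 was called higher and 2 lower, with a median log2 fold change of -0.13. Myo6, a myosin that moves endocytic vesicles inward along actin and binds Dab2, stood at 328, 127 and 225 CPM in endoderm and at most 15.1 CPM in mesoderm (5.78 ± 0.66, edgeR adjusted p = 0.000308). Vldlr and Lrp1, receptors of the LDL receptor family like megalin, had log2 fold changes below zero, -3.63 ± 0.80 (adjusted p = 0.0137) and -1.20 ± 0.28 (adjusted p = 0.0191). Lrp1 stood at 151 to 161 CPM in endoderm and 156 to 524 CPM in mesoderm, and hematopoietic replicate 1 fell within the endoderm range. Vldlr stood at 5.07 to 10.8 CPM in endoderm and 4.66 to 303 CPM in mesoderm, where hematopoietic replicate 2 was the lowest. The calls of Vldlr and Lrp1 were each lost when any 1 endoderm library was left out.

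Of 34 other lysosomal hydrolases and activators tested, 3 were called higher and 0 lower, and their median was 1.18. Manba, beta-mannosidase, was higher by 3.55 ± 0.81 (edgeR adjusted p = 0.0162), Ifi30, a lysosomal thiol reductase, by 3.54 ± 0.91 (0.0323) and Scpep1, a serine carboxypeptidase, by 2.00 ± 0.56 (0.0468). Their levels were 19.9, 8.76 and 33.95 CPM in endoderm against 0.419 to 3.999 CPM in mesoderm for Manba, 14.4 to 32.8 against 0 to 7.27 CPM for Ifi30, and 47.4 to 111 against 6.21 to 40.6 CPM for Scpep1, so that none of them overlapped. Each was lost in some fits that left out 1 library, in 2, 4 and 9 of 12. Of 31 genes of the lysosomal membrane and proton pump tested, 1 was called, Atp6v0a1, a subunit of the proton pump (1.26 ± 0.34, adjusted p = 0.0404; lost in 6 of 12), and the median was 0.41. Its level was 92.9 to 154 CPM in endoderm and 20.8 to 83.2 CPM in mesoderm. Of 32 sorting genes, regulators and cathepsin inhibitors tested, 1 was called, Sorl1, a sorting receptor of the endosome (4.39 ± 0.76, adjusted p = 0.00386; kept in 12 of 12), and the median was 0.36. Sorl1 stood at 284, 232 and 175 CPM in endoderm and at 0.628 to 28.6 CPM in mesoderm. The 9 cathepsins known from the placenta were at most 0.280 CPM when summed in any library, and 7 of them had no count in any library.

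The labels were checked against marker genes. Summed general endoderm markers, with Epcam and Foxa2 among them, stood at 1160 to 1466 CPM in endoderm and 23.6 to 192 CPM in mesoderm, and Epcam itself at 203 to 239 CPM in endoderm. Hematopoietic and endothelial markers summed to 2499 to 3258 CPM in hematopoietic mesoderm and 49.9 to 1078 CPM in the other libraries. Cardiac mesoderm markers summed to 575 to 643 CPM in endoderm and 907 to 2560 CPM in mesoderm, and Kdr is on both of these lists. EPCAM and KDR stand in the labels of the sorted types, so Epcam and Kdr are no separate check. Epiblast markers summed to 530 to 569 CPM in endoderm against 2.88 to 324 CPM in mesoderm, and their part in the results was not tested. Trophoblast markers summed to 11.5 to 68.0 CPM in endoderm, with Elf5 at 8.55, 5.16 and 35.1 CPM. In mesoderm they summed to 0 to 118 CPM, the highest in hematopoietic replicate 1, where Ascl2 stood at 118 CPM. Parietal endoderm markers summed to 475 to 662 CPM in endoderm and 358 to 998 CPM in mesoderm. The part of these cells was not tested either. Of 8 markers of macrophages, which are rich in lysosomal proteases, Ptprc, Adgre1, C1qa, C1qb and Fcgr1 were at 0 in all 12 libraries. The summed list stood at 0.118 to 0.633 CPM in endoderm and at 0 to 30.4 CPM in mesoderm. Gene counts totalled 4472800 to 7888631 per library, and the common biological coefficient of variation was 0.394 in endoderm, 0.749 in YFP-negative, 1.00 in YFP-positive and 1.15 in hematopoietic libraries. The p-values measure the spread between these samples, which may be partly technical, since nothing in the labels says that replicates are separate litters.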

How the data were processed

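RNA was purified with the Agilent Absolutely RNA nanoprep kit and amplified with NuGEN Ovation low-input systems, per the labels' protocols. The deposited values were raw read counts per gene, whole numbers not normalized by the authors, for 38924 Ensembl genes and 5 summary categories per library. The submitters' processing notes name STAR 2.5.0a, Picard, HTSeq 0.6.0, DESeq2 and build mm10, with no role or order; the annotation release and strand setting are not given in the sources used here. Genes took 18.3% to 21.5% of tallied reads, reads in no gene 34.5% to 43.6% and reads without a unique place 35.1% to 44.8%; the categories stayed out of library sizes. Without a known strand setting, overlapping genes cannot be separated; 24 of the 35 genes share no exonic bases with another GENCODE M21 gene. That annotation, on GRCm38, the same assembly as mm10, gave coordinates and exon lengths. Symbols were matched for 37607 identifiers, and promoter windows came from RefSeq on GRCm38.p6.

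Counts were tested with edgeR 4.0.16 in R 4.3.3: trimmed-mean scaling (factors 0.915 to 1.07), filterByExpr, which kept 14170 genes, and a quasi-likelihood fit of all 12 libraries with 1 coefficient per type and 8 residual degrees of freedom. Tests were two-sided, with Benjamini-Hochberg adjustment over all genes tested and a threshold of 0.05. SE is the log2 fold change divided by the root of F. Groups came from sample titles. The labels' replicate numbers were checked for pairing by correlating, across genes, how far libraries lay from the mean of their type. For same-numbered libraries of different types r averaged 0.0139 (-0.0177 to 0.0319, 18 pairs). For differently numbered ones it averaged -0.00694 (36 pairs). Deviations from a type's own mean cancel out, so the second average follows from the first and is no separate comparison. The check does not settle pairing, and the fit reported did not use the numbers as pairs. The names of the deposited files carry 1 date per replicate number; what it records is not stated, each date holds 1 library of every type, and the fit with the number as a block is also the fit with that date as a term. No 2 libraries of a type agreed within counting noise (chi-square per degree of freedom 17.1 to 113). Scripts were tested on simulated counts in which a gene had the same spread in every type. The libraries here differ in spread between types, and that was not tried.

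The genes, the pathway and marker lists and the tests were chosen with earlier results of these data known. All 35 genes were named; values in every library were given for the receptors, Tfeb, those of the 35 called by edgeR in any comparison and the 5 of highest mean CPM. From each pathway list at most the 4 called genes with the largest change were named, with ranges or values by library. Ctsb, Ctsd, Ctsz, Ctso, Npc2, Asah1, Lgmn and Glb1 got fuller values after these were seen. Alternatives were another scaling, no expression filter, a mean of at least 5 CPM, the replicate block, DESeq2 1.42.0, limma 3.58.1 voom with quality weights, fits restricted to the pair at hand, and leaving out each library. Counting intervals and floors of 3 counts leave out amplification, which copies molecules and was not tracked by molecular identifiers, and so cover counting error only.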

Additional observations from a re-analysis of the deposited data

How the results depend on the processing

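Of 54 counts of genes called that were recomputed with other settings, 45 stayed within the limits set for a change. Of 96 such counts from fits that left out 1 library, 71 did. Genes called against YFP-positive cardiac mesoderm, 3 in the fit reported, were 8 with DESeq2 (7 higher in endoderm, 1 lower) and 9 with only the 2 types fitted, while the share of all genes called went from 1.54% to 6.79% and 8.28%. Against YFP-negative cardiac mesoderm they were 4 as reported, 2 with the replicate block, 7 with limma voom and 12 with only the 2 types fitted, with 1.31%, 1.01%, 12.8% and 10.1% of all genes called. Against the mean of mesoderm limma voom gave 15 in place of 8, with 21.8% of all genes in place of 7.43%. Between mesoderm types DESeq2 gave 1 for the 2 cardiac fractions, 2 for YFP-positive cells against hematopoietic mesoderm and 1 for YFP-negative cells against it, all 0 in edgeR, with 0.815%, 11.1% and 7.81% of all genes called against 0.0%, 1.79% and 0.593%. The cause of these shifts was not tested. Leaving out 1 library gave 1 to 6 calls of endoderm against YFP-positive cells, 1 to 5 against YFP-negative cells, 3 to 9 against hematopoietic mesoderm and 6 to 14 against the mean of mesoderm. It gave 3 to 8 for any difference, 0 to 0 between the cardiac fractions, 0 to 3 for YFP-positive against hematopoietic mesoderm and 0 to 2 for YFP-negative against it. The share of all genes called also changed with the library left out, as given above for hematopoietic replicates 2 and 3. These ranges are therefore not read as particular to the set. With fewer libraries a lost call does not show a smaller difference. The highest counts against hematopoietic mesoderm and against the mean of mesoderm, 9 and 14, came without hematopoietic replicate 2, as did the 3 and 2 between mesoderm types. The lowest counts came without an endoderm library or a library of the cardiac fraction compared. Cubn passed in every fit of endoderm against mesoderm but limma voom, which weighted endoderm libraries 2.54 to 2.70 and the others 0.329 to 1.22. Whether the replicate numbers pair the libraries was not settled. With them as a block the calls were 2, 2, 6 and 8 in the 3 pairs with endoderm and the contrast with mesoderm. The share of all genes is given above for the first 2 only, and the others are not read as particular to the set. Of 12 libraries, 6 correlated best with their own number in every other type, a count not set against an expected one. Tfeb, Ctss, Amn and Folr1 had no count in 5, 7, 7 and 8 of the 9 mesoderm libraries, where levels below 3 counts, or 0.355 to 0.720 CPM, cannot be told from 0.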

Other observations

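A few lysosomal genes outside the 35 were called between hematopoietic mesoderm and some of the other types. Against YFP-positive cells they were 1 of 34 hydrolases, 1 of 31 membrane and pump genes and 0 of 32 sorting genes and regulators. In that pair edgeR called 1.79% of all genes. Higher in endoderm than in hematopoietic mesoderm were 2 of 34, 1 of 31 and 2 of 32, against 3.23% of all genes. These calls are not read as particular to lysosomal genes. Galc, the lysosomal galactosylceramidase, had 0, 1.04 and 1.05 CPM in the hematopoietic libraries. It stood at 9.27 to 51.5 CPM in YFP-positive cells, 12.9 to 51.1 CPM in YFP-negative cells and 21.1 to 41.9 CPM in endoderm. Hematopoietic mesoderm was lower than YFP-positive cells and endoderm (log2 differences of 5.47 ± 1.15 and 5.42 ± 1.14, edgeR adjusted p = 0.0376 and 0.0205). The pair with YFP-negative cells was not called. Mcoln3, which encodes the endosomal and lysosomal channel mucolipin-3, went the other way (edgeR adjusted p = 0.0414). It stood at 109, 15.9 and 26.4 CPM in hematopoietic libraries and 1.04, 0.364 and 0 CPM in YFP-positive libraries. In endoderm it stood at 7.12 to 14.7 CPM, and the pair with endoderm was not called. Cln3, a lysosomal membrane protein, and Lamtor2, part of the scaffold that docks the mTORC1 kinase on lysosomes, were higher in endoderm than in hematopoietic mesoderm (adjusted p = 0.0454 and 0.0389), as were Ifi30 and Sorl1 (0.0494 and 0.0378). In the cardiac libraries Ifi30 and Sorl1 stood at 0.668 to 7.27 and 3.45 to 28.6 CPM, so they were low there too. Of fits that left out 1 library, 9 of 12 kept the call of Galc against endoderm and 4 of 12 that against YFP-positive cells. For Mcoln3 2 of 12 kept it, for Cln3 2, for Lamtor2 4, for Ifi30 0 and for Sorl1 5.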
